A study of Mus musculus with 18 samples.

Results

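Liver and epididymal fat were compared in mice on a normal diet, from 3 liver and 3 epididymal fat arrays that the labels give as normal diet. These 6 arrays are 6 of 18 in the series, whose other 12 arrays are 3 of each tissue under a high-fat diet (HFD; 20% fat, 1% cholesterol) and 3 of each under the HFD with the plant flavonoid luteolin added at 0.005% (w/w) (LU). The mice were male C57BL/6J, spelled C56BL/6J in 1 field of the labels, arrived at 4 weeks of age, spent their acclimation on the semi-purified AIN-76 diet and then ate the normal diet (ND) for 16 weeks, in a diet group of 10 mice. The labels name no transgene, and no mouse of these 6 arrays received luteolin. Whether the 3 arrays of a tissue came from separate mice is not stated in the labels, so p-values here measure the spread between these samples only, and that spread may be technical. Each tissue was deposited in a table of its own and the labels name no chip or scan, so tissue and chip cannot be told apart.

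Liver parenchyma is mostly hepatocytes, which make most plasma proteins, clear ammonia through the urea cycle, make bile acids and glucose, and modify drugs and steroids. Epididymal fat is a visceral white depot whose adipocytes store triglyceride in large droplets, release fatty acids by lipolysis and secrete hormones such as leptin and adiponectin. Around the adipocytes lie vessels, fibroblasts, immune cells and a mesothelial surface, and in liver the sinusoids hold their own endothelium, Kupffer cells and stellate cells.

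Transcripts were measured on Illumina mouse bead arrays, where each probe gives a signal and a detection p-value against negative control beads. Liver arrays detected 15464 to 15834 of 45281 probes at a detection p below 0.05, and fat arrays 19113 to 19691, and the median signal was 150 to 152 (liver) and 194 to 207 (fat). The arrays were normalized together, and levels are given below as normalized log2 signals, apart from the summed marker levels. Differences are log2 differences, liver minus fat, ± SE, with n = 3 arrays per tissue, and levels are never compared between genes. A gene is called higher in 1 tissue where limma's treat test of a difference above 2-fold passed at an adjusted p of 0.05. Arrays of 1 tissue correlated at 0.9933 or more and arrays of different tissues at 0.589 to 0.601. The first principal component held 98.0% of the variance and placed the liver arrays between -108.3 and -106.8 and the fat arrays between 106.5 and 108.5. The brightest probe of each array lay between 68608 and 69759, and signals above 50000 came from 63 to 76 probes per liver array and 57 to 58 per fat array. Genes near that end of the scale, at a normalized level of about 16, have little room to differ upward.

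Of 10270 genes tested, 1433 (14%) were higher in liver and 2339 (22.8%) were higher in fat. The test against 0 called 8536 genes (83.1%), 3793 of them higher in liver (36.9%) and 4743 higher in fat (46.2%), and for 8758 genes (85.3%) the arrays of the tissues did not overlap. In bulk tissue, fewer cells of a type and less RNA per cell cannot be told apart. Differences above 8-fold were found for 545 genes higher in liver and 627 higher in fat, while differences above 100-fold were found for 179 genes higher in liver and 45 higher in fat. The median difference over all genes tested was -0.14. Of 14422 genes with a probe, 359 (2.49%) were detected in liver only and 1500 (10.4%) in fat only. The lowest normalized level that counted as detected was 6.44 to 6.52 on liver arrays and 5.78 to 5.85 on fat arrays. This gap belongs to the normalized scale, and deposited signals could go the other way. Ebf1 was detected on all 3 liver arrays at signals of 183 to 204, while Fads2 was undetected on all 3 fat arrays at 212 to 220. The part of these detection limits in the counts was not tested. Among called genes, 358 of those higher in liver were undetected on all 3 fat arrays and 998 of those higher in fat were undetected on all 3 liver arrays. With detection on all 6 arrays there remained 967 genes higher in liver and 1153 higher in fat.

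**Figure D1:**
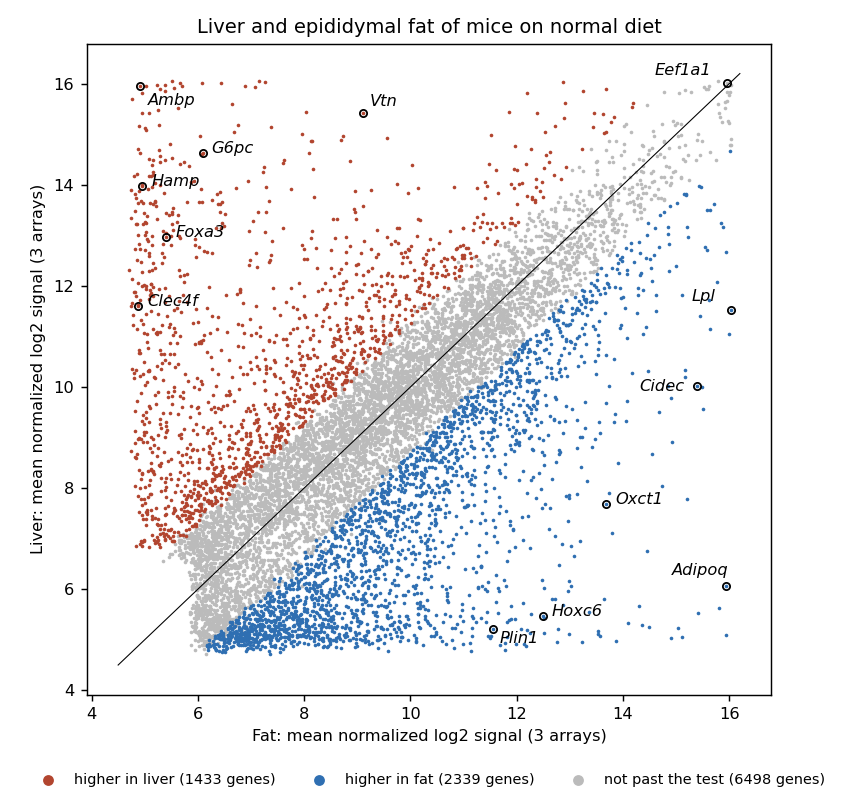
Mean normalized log2 signal of each gene tested over 3 fat arrays (x axis) and 3 liver arrays (y axis), with 1433 genes higher in liver in red, 2339 higher in fat in blue and the others grey, and the line of equal level. Genes undetected in 1 tissue form the bands along the left and lower edges, and genes at the upper right end lie near the top of the scale in both tissues.

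The genes with the largest difference toward liver encode secreted proteins, transporters and metabolic enzymes of the hepatocyte. Ambp, the precursor of alpha-1-microglobulin and bikunin, read 15.92, 15.95 and 15.97 on the liver arrays and 4.86, 4.94 and 4.96 on the fat arrays. The liver arrays lay at the top of the scale and the fat arrays at background, so the difference of 11.03 ± 0.079 (adjusted p = 1.37e-10) is given as at least 1124-fold higher in liver. Slco1b2, which takes organic anions including bile acids into hepatocytes, read 15.64, 15.72 and 15.72 in liver and 4.74, 4.86 and 4.69 in fat, at least 946-fold higher in liver. Cps1, which starts the urea cycle by making carbamoyl phosphate, read 15.38, 15.60 and 15.30 in liver and 5.18, 4.89 and 4.78 in fat, at least 787-fold higher in liver. For each of these genes the lowest liver array was above the highest fat array by about the whole range of the assay. Cyp4a14, a fatty acid hydroxylase of the cytochrome P450 family, was at least 1023-fold higher and Azgp1, zinc-alpha-2-glycoprotein, at least 1054-fold higher. The same direction held for the plasma proteins Ahsg (fetuin-A), Fga (the fibrinogen alpha chain), Hpx (the haem carrier hemopexin) and Serpina1c (an alpha-1-antitrypsin), with bounds of at least 1134, 1142, 1093 and 1212-fold. Apoa2 and Apoa1, apolipoproteins of high density lipoprotein, were also among the 12, Apoa2 at least 1152-fold higher and Apoa1 with a difference of 10.36 ± 0.12. Cyp8b1, the sterol 12-alpha-hydroxylase that sets the ratio of cholic acid, was at least 1097-fold higher. Of these 12 genes 11 were undetected on all 3 fat arrays, and Apoa1 was detected on 1 of them. The bounds are those of the probe kept for each gene. Other probes differed by less than the bound for Slco1b2 (7.27), Ahsg (8.79), Hpx (9.22) and Azgp1 (7.98).

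Among the 12 genes with the largest difference toward fat were 2 adipocyte hormones. Adipoq, the hormone adiponectin, read 5.99, 6.04 and 6.15 on the liver arrays and 15.93, 15.92 and 15.98 on the fat arrays. Lep, the satiety hormone leptin, read 5.29, 5.30 and 5.98 in liver and 15.55, 15.10 and 15.57 in fat. No liver array detected either hormone and no tissue overlapped the other, with Adipoq at least 715-fold and Lep at least 492-fold higher in fat. Aoc3, a copper amine oxidase of the adipocyte and vessel surface, read 4.99 to 5.29 in liver and 15.95, 15.93 and 15.95 in fat (at least 714-fold higher in fat), while another probe of the gene differed by -2.09. Cav1 and Cavin1, which build caveolae, were at least 654-fold and 197-fold higher in fat. Prkar2b, a regulatory subunit of protein kinase A, was at least 381-fold higher in fat, with -3.20 for its other probe. Adig (adipogenin), Retnla (a secreted resistin-like protein) and Slc1a3 (a glutamate and aspartate transporter) were at least 169, 259.6 and 228-fold higher in fat. Tmem45b, Rgcc and the sulfotransferase gene Chst1 were at least 400.3, 348 and 239-fold higher. All 12 were undetected on the 3 liver arrays.

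**Figure D2:**
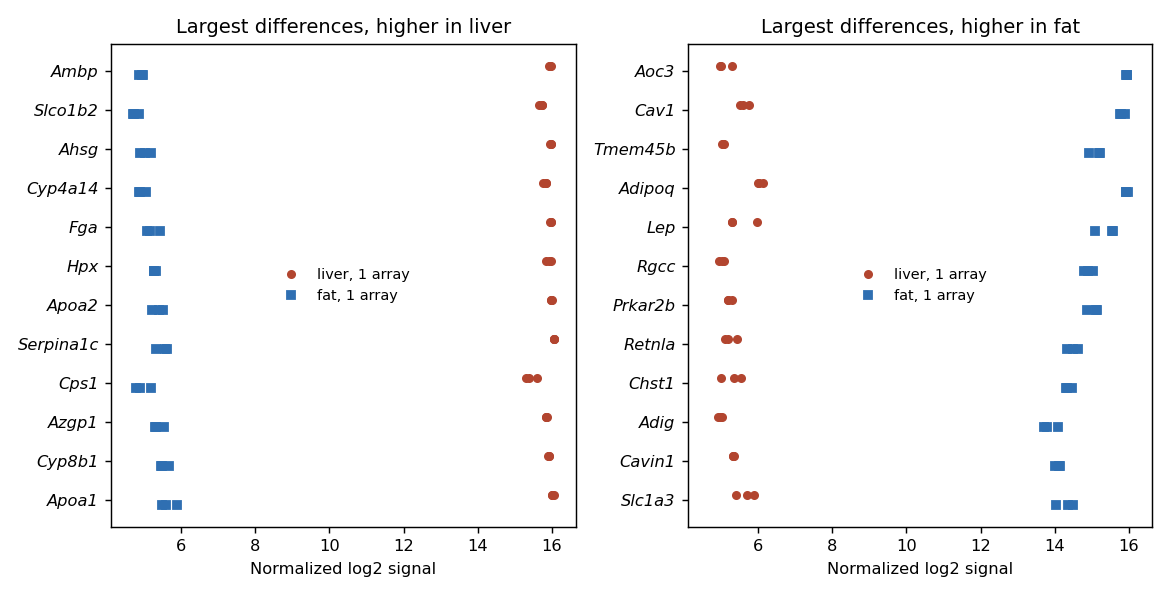
Normalized log2 signal of the 12 genes with the largest difference in each direction, left higher in liver and right higher in fat, with 1 red circle per liver array and 1 blue square per fat array. Within a gene the 3 arrays of a tissue lie close together and the tissues are far apart, with the lower tissue between about 4.7 and 6.2.

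Promoters of these genes were read from RefSeq's GRCm38.p6 annotation, as 250 bases before to 50 after the start site. The 5 shown were chosen, after the matches were seen, among the top 12 of each direction as examples with a match to a motif of a liver or adipocyte factor. They are printed 5′ to 3′ on the strand of the gene with all motif matches in capitals. Slco1b2 (chr6:141629268-141629567, plus strand) and Fga (chr3:83025903-83026202, plus strand) hold the 9-letter HNF1 motif GTTAATNAT, and Cyp8b1 (chr9:121916256-121916555, minus strand) holds the HNF4 motif CAAAGTCCA. Lep (chr6:29059971-29060270, plus strand) and Retnla (chr16:48842359-48842658, plus strand) hold the C/EBP motif TTGCNNAA.
Slco1b2: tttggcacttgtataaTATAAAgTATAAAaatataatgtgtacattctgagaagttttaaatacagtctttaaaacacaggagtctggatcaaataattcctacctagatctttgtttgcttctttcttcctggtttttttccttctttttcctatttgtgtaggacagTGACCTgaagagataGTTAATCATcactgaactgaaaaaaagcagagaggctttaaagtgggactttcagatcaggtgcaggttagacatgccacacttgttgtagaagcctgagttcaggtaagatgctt
Fga: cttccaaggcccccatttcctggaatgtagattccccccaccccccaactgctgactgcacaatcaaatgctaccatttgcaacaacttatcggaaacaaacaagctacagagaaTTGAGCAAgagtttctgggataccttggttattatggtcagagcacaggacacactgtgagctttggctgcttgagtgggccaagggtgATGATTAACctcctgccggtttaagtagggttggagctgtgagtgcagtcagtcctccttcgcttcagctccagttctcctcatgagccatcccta
Cyp8b1: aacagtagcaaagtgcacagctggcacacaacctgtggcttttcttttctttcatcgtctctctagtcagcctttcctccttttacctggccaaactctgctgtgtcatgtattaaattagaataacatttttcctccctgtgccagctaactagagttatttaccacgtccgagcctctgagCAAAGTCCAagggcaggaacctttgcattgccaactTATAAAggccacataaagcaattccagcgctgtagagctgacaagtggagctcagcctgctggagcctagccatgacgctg
Lep: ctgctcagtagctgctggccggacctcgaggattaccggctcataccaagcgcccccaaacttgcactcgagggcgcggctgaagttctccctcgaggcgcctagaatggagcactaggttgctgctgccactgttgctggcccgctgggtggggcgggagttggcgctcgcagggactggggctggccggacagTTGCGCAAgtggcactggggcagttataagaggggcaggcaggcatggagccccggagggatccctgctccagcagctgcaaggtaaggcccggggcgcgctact
Retnla: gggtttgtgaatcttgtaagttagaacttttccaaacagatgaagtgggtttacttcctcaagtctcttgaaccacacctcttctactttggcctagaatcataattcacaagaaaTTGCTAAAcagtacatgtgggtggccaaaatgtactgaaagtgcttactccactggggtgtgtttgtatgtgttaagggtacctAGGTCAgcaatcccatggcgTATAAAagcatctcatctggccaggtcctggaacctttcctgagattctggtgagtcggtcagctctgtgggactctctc

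Counting the first base of the transcript as 1, the HNF1 match starts at -66 in Slco1b2 and at -46 in Fga, where it lies on the opposite strand. The HNF4 match of Cyp8b1 starts at -67 and is followed by a TATA box (TATAAA) at -31. The C/EBP match of Lep starts at -55 and reads the same on both strands. Retnla has C/EBP at -134, the nuclear receptor core AGGTCA at -50 and TATAAA at -30. The other capitals are TATAAA at -234 and -227 and AGGTCA at -81 on the opposite strand in Slco1b2, and a C/EBP match at -135 on the opposite strand in Fga.

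Both strands of the first listed promoter were searched for 1147 of 1433 genes higher in liver, 1833 of 2339 higher in fat, 8290 of the 10270 genes tested and 27025 genes in all. GTTAATNAT was found in 2.79% of promoters of genes higher in liver (32 genes), 0.109% of those higher in fat (2 genes), 0.591% of those of genes tested and 0.836% of all promoters. Its shorter core GTTAAT, which overlaps it, was found in 7.93% of promoters of genes higher in liver, 3.38% of those higher in fat, 4.4% of genes tested and 7.2% of all. CAAAGTCCA was found in 1.13% of promoters of genes higher in liver, 0.491% of those higher in fat, 0.495% of genes tested and 0.477% of all. In the same order of sets, AGGTCA was found in 17.3%, 11.4%, 12.3% and 16%, TTGCNNAA in 11.5%, 9.22%, 8.61% and 10.8%, and TATAAA in 11%, 9.33%, 8.14% and 14.2%. For TATAAA the share of genes higher in liver was above that of genes tested and below that of all promoters, and so was the share of genes higher in fat for TATAAA and TTGCNNAA. These shares describe letters in a window, were not tested and do not show binding.

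Secreted liver proteins were mostly higher in liver. Of 30 plasma and acute phase protein genes 28 had a probe and 27 were tested. Of these 22 were higher in liver, 0 in fat and 5 did not pass, with a median difference of 7.34 beside -0.14 over all genes. Ttr, the thyroxine and retinol transport protein transthyretin, read 15.44, 15.42 and 15.68 in liver and 6.01, 5.53 and 5.33 in fat, a difference of 9.90 ± 0.17. Saa1, a serum amyloid A of the acute phase, was at least 40.7-fold higher in liver. Cp, the copper carrier ceruloplasmin, differed by 1.43 ± 0.12, but its other probes differed by 3.47, -0.17 and -2.75. The 5 that did not pass were Trf (transferrin, 0.27 ± 0.094), Hp (haptoglobin, 0.54 ± 0.098), the orosomucoids Orm1 (0.96 ± 0.19) and Orm2 (1.48 ± 0.22), and Rbp4 (retinol binding protein, 0.074 ± 0.095). These 5, like other genes given below because they did not pass, were named after their values were seen, and so were Alb, Saa1, Cp and the further list members that the naming rule does not reach.

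Of 19 apolipoprotein and lipoprotein assembly genes 16 were tested, with 14 higher in liver and 0 in fat (median 7.16). Apoa4, carried on chylomicrons and high density lipoprotein, read 15.02, 14.93 and 15.29 in liver and 5.14, 5.02 and 4.94 in fat, at least 617-fold higher in liver. Apoc3, an inhibitor of triglyceride clearance, differed by 9.05 ± 0.12 and Mttp, which loads lipid onto apolipoprotein B, by 4.91 ± 0.12. Apoe, the ligand of lipoprotein receptors that many cells make, differed by 1.05 ± 0.11 and Pltp, the phospholipid transfer protein, by 0.65 ± 0.11, and neither passed.

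Of 23 coagulation and fibrinolysis genes 21 were tested and 20 were higher in liver, 0 in fat (median 8.03). Plg, the precursor of plasmin, read 14.77, 14.76 and 14.57 in liver and 4.81, 4.95 and 4.84 in fat, at least 474-fold higher in liver, although other probes of the gene differed less. Serpinf2, the plasmin inhibitor, and F9, coagulation factor IX, were at least 409-fold and 331-fold higher in liver. Pros1, the anticoagulant protein S, was the 1 gene that did not pass (-0.23 ± 0.09). Of 26 complement genes 19 were tested, with 11 higher in liver, 0 in fat and 8 not passing (median 3.27). C9, of the membrane attack complex, and the mannose-binding lectins Mbl1 and Mbl2 were at least 334, 203 and 147-fold higher in liver, and C4bp, which inhibits the pathway, at least 134-fold. The C1q chains C1qa (-0.66 ± 0.091), C1qb (-0.39 ± 0.13) and C1qc (-0.074 ± 0.11), which macrophages make, did not pass.

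Nitrogen and bile acid genes were higher in liver almost throughout. Of 32 urea cycle and amino acid catabolism genes 26 were tested, with 24 higher in liver and 0 in fat (median 5.80). Arg1, the arginase that releases urea, read 14.78, 14.88 and 14.75 in liver and 5.37, 5.76 and 5.31 in fat, at least 509-fold higher in liver. Mat1a, which makes S-adenosylmethionine in hepatocytes, differed by 10.25 ± 0.097, and Gnmt, which consumes it, was at least 815-fold higher in liver. Fah of tyrosine breakdown (1.15 ± 0.094) and the alanine aminotransferase Gpt (1.25 ± 0.21) did not pass.

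Of 21 bile acid genes 18 had a probe, 16 were tested and 16 were higher in liver (median 6.84). Cyp7a1, the rate-limiting enzyme of bile acid synthesis, read 13.85, 13.73 and 13.35 in liver and 4.96, 4.86 and 4.82 in fat. All 3 liver arrays detected it and no fat array did, at least 229-fold higher in liver. Slc27a5, which activates bile acids with coenzyme A, was at least 436-fold higher in liver, and the export pump Abcb11 at least 43.3-fold. The smallest differences were those of Hsd3b7 (1.78 ± 0.11) and Cyp27a1 (2.04 ± 0.091), enzymes also active outside the liver.

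Of 24 gluconeogenesis and glycogen genes 20 were tested, with 10 higher in liver, 2 in fat and 8 not passing (median 1.20). G6pc, the glucose-6-phosphatase that frees glucose for release, read 14.53, 14.58 and 14.78 in liver and 6.30, 5.85 and 6.12 in fat, a difference of 8.54 ± 0.13 (adjusted p = 1.05e-09). Gckr, the inhibitor of glucokinase, was at least 56.4-fold higher in liver. Pygb, a glycogen phosphorylase isoform, and Gyg, the glycogenin that primes glycogen, were higher in fat, at -5.14 ± 0.14 and -3.95 ± 0.18. Pck1, which makes phosphoenolpyruvate for glucose in liver and for glycerol in fat, differed by -0.53 ± 0.11 and did not pass.

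Of 39 cytochrome P450 and conjugation genes 35 were tested, with 29 higher in liver, 0 in fat and 6 not passing (median 7.31). Ces1c, a secreted carboxylesterase, and Ugt2b36, a glucuronosyltransferase, were at least 655-fold and 636-fold higher in liver. Cyp3a11, a main drug-metabolising P450, read 14.58, 14.80 and 14.51 in liver and 4.86, 4.99 and 4.88 in fat. Cyp2e1, which oxidises ethanol and acetone, read 15.89, 15.98 and 15.98 in liver and 15.93, 15.93 and 15.93 in fat, at the top of the scale in both tissues (0.018 ± 0.078). Ces1d (-0.72 ± 0.081), Fmo1 (0.082 ± 0.096) and Gstm1 (0.051 ± 0.13) did not pass either. Members of the Cyp2, Cyp3, Ugt, Mup and Serpina1 families are close in sequence, so how far a probe reads its own gene alone is uncertain.

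Of 19 genes typical of male mouse liver, major urinary protein genes among them, 13 were tested, with 12 higher in liver and 0 in fat (median 7.43). Mup2 and Mup3, pheromone carriers excreted in urine, differed by 9.92 ± 0.16 and 8.84 ± 0.12, and Cyp4a12a, an arachidonic acid hydroxylase, was at least 411-fold higher in liver. Serpina1e read 14.88, 15.71 and 14.94 in liver and 5.44, 5.27 and 5.12 in fat, with liver array 2 above the other 2.

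Regulators of the hepatocyte followed the same direction. Of 24 liver transcription factor and nuclear receptor genes 18 were tested, with 13 higher in liver, 0 in fat and 5 not passing (median 4.83). Foxa3, a forkhead factor, read 13.07, 13.08 and 12.78 in liver and 5.16, 5.50 and 5.56 in fat, at least 144-fold higher in liver. Nr1i3, the xenobiotic receptor CAR, and Creb3l3, a membrane-bound regulator of lipid genes, were at least 102-fold and 93.3-fold higher in liver. Nr1h4, the bile acid receptor FXR, and Hnf4a, a main factor of hepatocyte identity, differed by 6.17 ± 0.11 and 5.23 ± 0.10. Cebpa (0.76 ± 0.13), Rxra (0.44 ± 0.12) and Nr1h3 (0.76 ± 0.10), which act in both tissues, did not pass.

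Of 24 hepatokine and liver hormone genes 18 were tested, with 15 higher in liver, 1 in fat and 2 not passing (median 2.90). Hamp, the iron hormone hepcidin, read 14.31, 14.11 and 13.54 in liver and averaged 4.95 in fat, at least 289-fold higher in liver. Tmprss6, the protease that restrains hepcidin, was at least 55.2-fold higher, with 4.47 at its other probe. Igfbp2, a carrier of insulin-like growth factors, was at least 157-fold higher. Hamp2, a paralogue of Hamp, was at least 171-fold higher. Ghr, the growth hormone receptor, was higher in fat (-1.39 ± 0.097), a call absent under cyclic loess and median scaling.

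**Figure D3:**
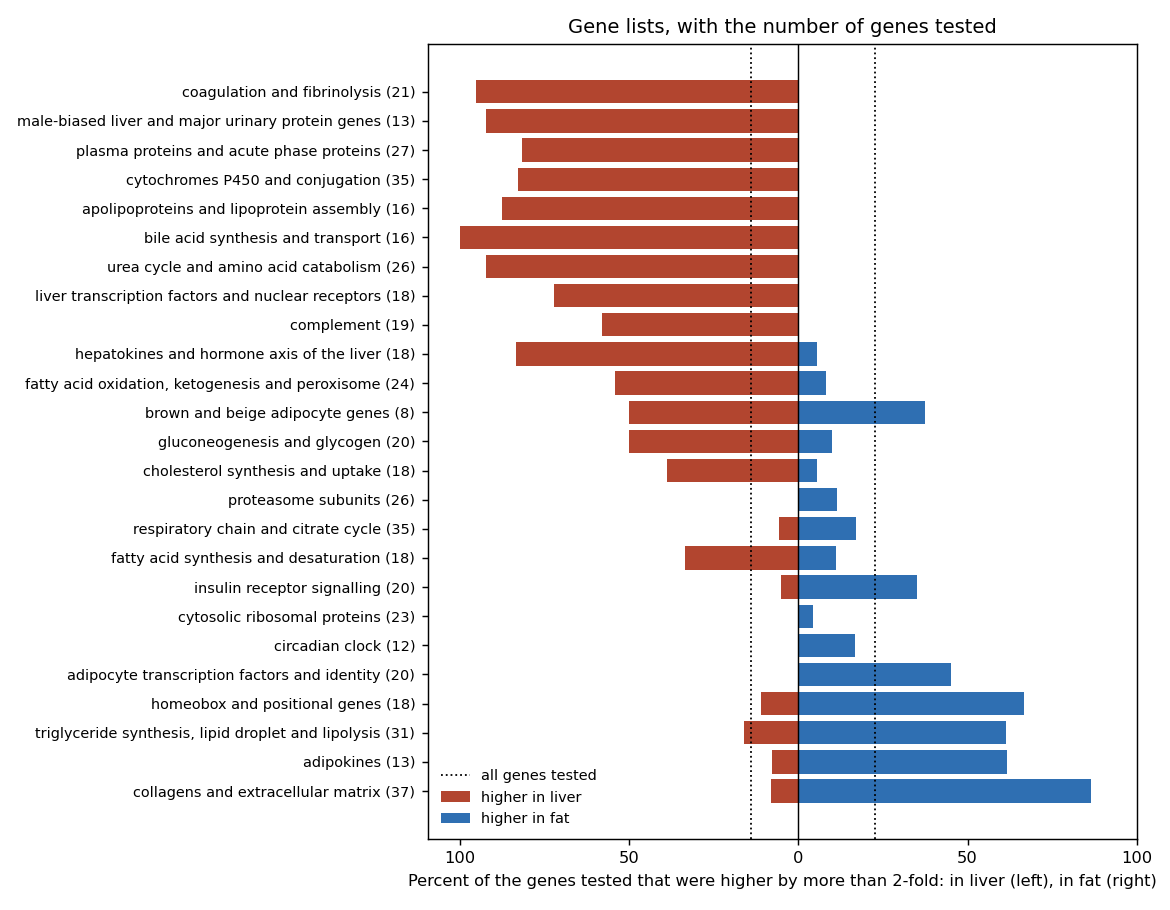
Percent of the genes tested in each list that were higher in liver (red, drawn to the left) or in fat (blue, drawn to the right), with the number tested in brackets and dotted lines at 14% and 22.8%, the shares over all genes tested. Lists run from the highest median difference at the top to the lowest, from coagulation at 8.03 to the extracellular matrix at -3.83.

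Lipid metabolism was divided between the tissues. Of 30 fatty acid oxidation, ketogenesis and peroxisome genes 24 were tested, with 13 higher in liver, 2 in fat and 9 not passing (median 1.73). Bdh1, which makes the ketone body hydroxybutyrate, read 12.34, 12.25 and 12.34 in liver and 5.22, 5.26 and 4.95 in fat, at least 90.5-fold higher in liver, while its other probe differed by 3.37. Oxct1, which ketone-using tissues need to burn ketone bodies and hepatocytes lack, read 7.51, 7.81 and 7.75 in liver and 13.73, 13.46 and 13.87 in fat. Every fat array was above every liver array, a difference of -6.00 ± 0.13 (adjusted p = 1.01e-08). The acyl-coenzyme A thioesterase Acot1 and the peroxisomal enzyme Ehhadh were higher in liver by 5.37 ± 0.15 and 3.85 ± 0.25. Hadhb was the other gene higher in fat (-1.27 ± 0.10). The list had 1 gene higher in fat under cyclic loess, median scaling or a replicate block, and 1 to 2 in fits without 1 array.

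Of 25 cholesterol synthesis and uptake genes 18 were tested, with 7 higher in liver, 1 in fat and 10 not passing (median 1.17). Hsd17b7 and Tm7sf2, enzymes of the late sterol pathway, were detected on all 3 liver arrays. Hsd17b7 read 12.83, 12.84 and 12.83 in liver and 9.83, 9.35 and 9.73 in fat. Tm7sf2 read 8.79, 8.37 and 8.71 in liver and 5.98, 5.78 and 5.78 in fat. Both were higher in liver, by 3.19 ± 0.13 and 2.78 ± 0.13. Dhcr7, the last reductase of the pathway, differed by 2.15 ± 0.25. Fdps, which makes farnesyl diphosphate, read 11.28, 11.45 and 13.00 in liver and 9.82, 9.28 and 10.04 in fat, with liver array 3 above the other 2. Its difference of 2.20 ± 0.44 (adjusted p = 0.0371) did not pass without fat array 1 (adjusted p = 0.0712) or fat array 2 (adjusted p = 0.119). Without background correction 4 genes of the list were higher in liver, Dhcr7 not among them (1.19, adjusted p = 0.352). Mvk, the mevalonate kinase, was the 1 gene higher in fat. It was undetected in liver and at least 1.14-fold higher in fat, and 0 genes of the list were higher in fat without background correction or under median scaling. Over fits without 1 array the list had 0 to 2 genes higher in fat and 5 to 8 higher in liver.

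Of 21 fatty acid synthesis and desaturation genes 18 were tested, with 6 higher in liver, 2 in fat and 10 not passing (median -0.083). The 6 included the makers of long and polyunsaturated fatty acids. Elovl3 read 11.40, 11.22 and 11.34 in liver and 4.96, 5.05 and 4.79 in fat. The desaturase Fads2 and the elongase Elovl2 were at least 77.3-fold and 38.3-fold higher in liver, while the other probe of Fads2 differed by 4.27. Me1, which supplies NADPH for synthesis, and Thrsp, a lipogenic protein, were higher in fat, at -3.41 ± 0.34 and -2.72 ± 0.56. Fasn, the fatty acid synthase, differed by -2.10 ± 0.47 and Scd1, the stearoyl-coenzyme A desaturase, by -1.21 ± 0.27, and neither passed. Liver array 2 read lower than the other liver arrays for Scd1, with 15.13, 14.07 and 15.19 in liver and 16.02, 16.00 and 16.01 in fat. Over fits without 1 array 1 to 3 genes were higher in fat.

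Of 36 triglyceride, lipid droplet and lipolysis genes 31 were tested, with 5 higher in liver, 19 in fat and 7 not passing (median -1.81). Plin1, the coat protein of adipocyte droplets, read 5.07, 5.15 and 5.43 in liver and 11.65, 11.42 and 11.58 in fat, at least 34-fold higher in fat. Aqp7, the glycerol channel of adipocytes, read 5.04, 4.95 and 5.17 in liver and 11.66, 11.95 and 11.87 in fat, at least 41.1-fold higher in fat. Cidec, which fuses droplets in adipocytes, differed by -5.37 ± 0.23 and was detected in both tissues. The lipases of the triglyceride breakdown chain, Pnpla2, Lipe and Mgll, differed by -3.27 ± 0.089, -3.91 ± 0.25 and -1.67 ± 0.11. Lpl, the lipase that unloads circulating triglyceride, read 11.62, 11.64 and 11.32 in liver and 16.05, 16.03 and 16.03 in fat, with fat at the top of the scale. The 5 higher in liver were Cideb (6.90 ± 0.097), which serves lipoprotein loading, Lpin2 (5.16 ± 0.17), Fitm1 (at least 9.98-fold), Plin5 (2.89 ± 0.11) and Plin2 (1.41 ± 0.12).

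Of 20 adipokine genes 13 were tested, with 1 higher in liver, 8 in fat and 4 not passing (median -2.10). Beside Adipoq and Lep, the secreted Wnt inhibitor Sfrp5 and the growth factor Nrg4 were higher in fat, Sfrp5 at least 6.97-fold and Nrg4 with a difference of -3.84 ± 0.21, as was Retn, resistin (at least 2.56-fold). Angptl4, an inhibitor of lipoprotein lipase, read 13.34, 13.62 and 13.43 in liver and 14.75, 14.78 and 14.79 in fat (-1.31 ± 0.097, adjusted p = 0.0198). That call was lost without liver array 1 (adjusted p = 0.0784) or liver array 3 (adjusted p = 0.0666), and under cyclic loess and median scaling. Agt, angiotensinogen, was the 1 gene higher in liver (1.71 ± 0.12), and Rarres2, chemerin, differed by 0.32 ± 0.11 and did not pass. Other probes of Rarres2 had the opposite direction (-1.38 and -0.48).

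Of 24 adipocyte transcription factor and identity genes 20 were tested, with 0 higher in liver, 9 in fat and 11 not passing (median -1.02). Pparg, the master regulator of adipocytes, read 10.50, 10.26 and 10.04 in liver and 13.24, 13.77 and 13.46 in fat, a difference of -3.22 ± 0.17 (adjusted p = 5.19e-06). The early B-cell factors Ebf1, Ebf2 and Ebf3 act with it. Ebf1 differed by -4.09 ± 0.12, and Ebf2, Ebf3 and Klf4, undetected on the liver arrays, were at least 8.38, 31.6 and 19.4-fold higher in fat. Differences were smaller at the other probes of Ebf3 (-2.55) and Klf4 (-3.67 and -2.60). Klf15 (0.37 ± 0.15) and Srebf1 (-0.22 ± 0.22) did not pass. Of 15 brown and beige adipocyte genes 8 were tested, with 4 higher in liver and 3 in fat (1 in fat without background correction). Cox8b, a respiratory subunit typical of brown fat, was at least 22.2-fold higher in fat, while the 4 higher in liver were Elovl3, the hormone Fgf21 (4.16 ± 0.17), the coactivator Ppargc1a (2.55 ± 0.20) and the nucleoside transporter Slc29a1 (2.28 ± 0.11). Ucp1, the uncoupling protein that defines brown fat, had a probe but was not detected on all 3 arrays of either tissue.

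Positional genes separated the organs. Of 36 homeobox and positional genes 24 had a probe and 18 were tested, with 2 higher in liver, 12 in fat and 4 not passing (median -1.80). Hoxc6 read 4.95, 6.07 and 5.41 in liver and 12.40, 12.52 and 12.56 in fat, at least 65.3-fold higher in fat. Hoxd8, Hoxc9 and Hoxb7 were undetected in liver and at least 20, 10.1 and 14-fold higher in fat. The 2 higher in liver were Hhex (3.42 ± 0.18), needed to form the liver bud, and Gata4 (at least 2.06-fold). Of these 1 was called without background correction and 1 with a stricter detection filter.

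Of 41 collagen and extracellular matrix genes 37 were tested, with 3 higher in liver, 32 in fat and 2 not passing (median -3.83). Lox, which cross-links collagen and elastin, read 5.32, 5.16 and 5.13 in liver and 12.09, 12.09 and 12.05 in fat, at least 49-fold higher in fat. Mfap5, of elastic microfibrils, was at least 20.5-fold higher in fat, and the small proteoglycan Ogn differed by -6.81 ± 0.21, with smaller differences at its other probes. The fibrillar collagens Col1a2 and Col3a1, undetected on the liver arrays, were at least 6.62 and 9.8-fold higher in fat, and Col1a1 differed by -3.72 ± 0.16. The basement membrane collagens Col4a1 and Col4a2 differed by -4.17 ± 0.095 and -4.38 ± 0.15. The 3 higher in liver were the plasma proteins Vtn (vitronectin, 6.31 ± 0.088) and Fn1 (fibronectin, 1.90 ± 0.15, with -0.088 at its other probe), and Col18a1 (1.85 ± 0.17), which is known from hepatocytes.

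Of 24 insulin receptor signalling genes 20 were tested, with 1 higher in liver, 7 in fat and 12 not passing (median -0.42). Slc2a4, the insulin-regulated glucose transporter GLUT4, read 5.37, 5.57 and 6.61 in liver and 8.89, 8.91 and 9.10 in fat, a difference of -3.11 ± 0.29. The adaptor gene Grb10 and the receptor Igf1r were higher in fat, at -4.12 ± 0.11 and -2.91 ± 0.15, and Cblb was undetected in liver and at least 5.94-fold higher in fat, though other probes of Grb10 and Cblb differed by -0.90 and -0.27. Insr, the insulin receptor, differed by -0.28 ± 0.12, Irs1 by 1.19 ± 0.089, Irs2 by -0.73 ± 0.19 and Akt2 by 0.25 ± 0.19, none past the test. The other probe of Insr had the opposite direction (0.84). Trib1, a pseudokinase, was the 1 gene higher in liver (2.08 ± 0.14), and 0 were without background correction.

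Genes of functions that all cells need were mostly below the 2-fold test, as were most genes tested, of which 36.7% passed it in either direction. Of 35 respiratory chain and citrate cycle genes tested 2 were higher in liver, 6 in fat and 27 did not pass (median 0.078). The 2 were Suclg2 (1.87 ± 0.11), a succinate-coenzyme A ligase subunit, and the fumarase Fh1 (1.23 ± 0.085, but -1.68 at its other probe), with 1 higher in liver under the replicate block and 8 under median scaling. Over fits without 1 array the count was 1 to 2. Citrate synthase Cs, malate dehydrogenase Mdh2 and the succinate dehydrogenase subunit Sdhd were higher in fat, at -1.75 ± 0.11, -1.84 ± 0.11 and -1.81 ± 0.11, and Sdhd did not pass without background correction (adjusted p = 0.0565). Of 23 cytosolic ribosomal protein genes 1 was higher in fat, Rpl32 (-1.30 ± 0.08), a call absent under cyclic loess and median scaling (median of the list -0.48). Of 26 proteasome subunit genes 3 were higher in fat, Psmd14 (-1.52 ± 0.14), Psmc2 and Psmd6, beside a list median of 0.17. Psmc2 and Psmd6 were undetected on the liver arrays, so only bounds of at least 1.73-fold and 1.52-fold can be given. Neither passed without background correction, and Psmd6 did not pass under median scaling (adjusted p = 0.175) or with the mean of its probes (adjusted p = 0.0506).

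Of 12 circadian clock genes tested 2 were higher in fat, a share below the 22.8% over all genes tested (median -0.62). They were Per3 and Nr1d2, both repressors within the clock loop. Nr1d2 read 8.28, 7.95 and 8.08 in liver and 9.58, 9.58 and 9.27 in fat (-1.37 ± 0.13). Per3 was undetected in liver and at least 1.74-fold higher in fat, and its other probe differed by 0.40. Without background correction neither passed, and Per3 did not pass under cyclic loess (adjusted p = 0.0604) or median scaling (0.331). Over fits without 1 array 0 to 2 clock genes were higher in fat. Nr1d2 did not pass without liver array 2 (adjusted p = 0.099), liver array 3 (0.0744), fat array 1 (0.0818) or fat array 2 (0.0688). Per3 did not pass without liver array 1 (adjusted p = 0.0643) or liver array 3 (0.0983), and without fat array 1, 2 or 3 the other probe was the brighter one kept, at 0.45, 0.32 and 0.39. The time of tissue collection is not given in the labels.

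Related genes with a liver form and an adipose or general form were set side by side within each gene. Of 25 such pairs 12 had both members tested. In 8 pairs the liver form was higher in liver and its partner higher in fat, and in 0 pairs the reverse was found. For glucose transport, Slc2a2 (GLUT2) differed by 6.42 ± 0.085 and Slc2a4 (GLUT4) by -3.11 ± 0.29. For pyruvate kinase, Pklr read 8.20, 8.54 and 9.29 in liver and 4.83, 4.96 and 4.80 in fat. Its partner Pkm read 9.13, 9.14 and 9.18 in liver and 11.99, 11.80 and 12.15 in fat. For the glycerol channels, Aqp9 differed by 6.24 ± 0.11 and Aqp7 was at least 41.1-fold higher in fat, but a second Aqp9 probe differed by -1.21, the opposite direction. The nuclear receptor Ppara was at least 18.8-fold higher in liver, with Pparg higher in fat as above. The fructose bisphosphatases Fbp1 and Fbp2 differed by 7.02 ± 0.23 and -2.76 ± 0.28. Of the fatty acid transport proteins, Slc27a5 was at least 436-fold higher in liver and Slc27a1 differed by -3.36 ± 0.17. The droplet proteins Cideb and Cidec differed by 6.90 ± 0.097 and -5.37 ± 0.23, and Plin5 by 2.89 ± 0.11 beside the bound of Plin1 above.

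Other pairs did not split. Cpt1a and Cpt1b, the outer mitochondrial carnitine palmitoyltransferases, were both higher in liver, although Cpt1b is known as the muscle form. Cpt1a, undetected in fat, was at least 2.97-fold higher and Cpt1b differed by 2.05 ± 0.13, and both calls were lost without background correction (0.82, adjusted p = 1, for Cpt1a and 1.24, adjusted p = 0.053, for Cpt1b). Gys2, the liver glycogen synthase, differed by 5.15 ± 0.14, while Gys1, undetected in liver, did not pass. Arg1 passed and Arg2, the mitochondrial arginase, undetected in liver, did not. Neither Scd1 (-1.21 ± 0.27) nor Scd2, undetected in liver, passed, and Scd2 passed without fat array 2 (adjusted p = 0.000429) and in the fit to all 18 arrays (adjusted p = 0.0216). Among pairs with 1 member tested, Fabp4, the adipocyte fatty acid binding protein, read 5.02, 5.02 and 5.23 in liver and 7.39, 7.57 and 7.33 in fat, at least 1.95-fold higher in fat, a call lost without background correction. Gja1 (connexin 43) differed by -3.27 ± 0.11 and the aldolase Aldoa by -2.20 ± 0.13. Fgfr1, undetected in liver, was at least 1.15-fold higher in fat. It did not pass without background correction (-0.59, adjusted p = 1), under median scaling (-1.02, adjusted p = 0.984) or without fat array 2 (adjusted p = 0.0879) or fat array 3 (0.0806). Pygl, the liver glycogen phosphorylase, read 13.68, 13.61 and 13.85 in liver and 13.65, 13.83 and 13.92 in fat. Its difference of -0.086 ± 0.11 is below 0 only under some scalings.

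**Figure D4:**
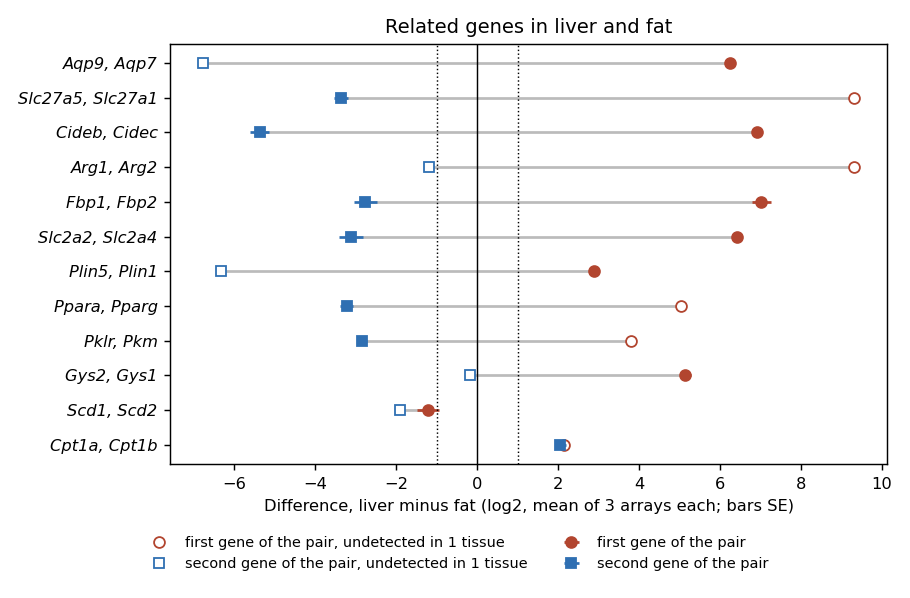
Difference between liver and fat (log2, liver minus fat, mean of 3 arrays each, bars SE) for the 12 pairs with both genes tested, the first gene of each pair as a red circle and the second as a blue square, open and without SE where the gene was undetected in 1 tissue and the position is no measured fold, with dotted lines at 2-fold either way. In the 8 pairs whose genes were called in opposite directions the circle lies right of the upper dotted line and the square left of the lower one, while Cpt1a (open) and Cpt1b lie together.

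The tissue labels were set against cell type markers. Summed levels, here and below, are sums of normalized signals on the linear scale, not log2. They run over all listed markers with a probe, including those undetected and not tested. Of 12 hepatocyte markers tested 10 were higher in liver and 0 in fat, with summed levels of 330293 to 340614 on liver arrays and 64883 to 64944 on fat arrays, where Cyp2e1 at the top of the scale was the main part. Alb, albumin, read 8.90, 8.88 and 9.11 in liver and 4.81, 4.94 and 4.87 in fat, undetected on all 3 fat arrays. Of 12 adipocyte markers tested 12 were higher in fat, with summed levels of 8940 to 9831 for liver and 233162 to 246007 for fat. Acvr1c, the activin receptor-like kinase of adipocytes, was at least 53-fold higher in fat, and 7 of these 12 were undetected on all 3 liver arrays.

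Markers of the resident cells of each organ were read as well. Over all genes tested 14% were higher in liver and 22.8% higher in fat. Of 8 Kupffer cell markers tested 3 were higher in liver, the lectin Clec4f (at least 55.5-fold, with 3.06 at its other probe), the complement receptor Vsig4 (4.20 ± 0.17) and the iron exporter Slc40a1 (2.53 ± 0.11), and 2 were higher in fat, Folr2 (-1.66 ± 0.13) and Cd163 (-3.15 ± 0.13), which other tissue macrophages share. Of 12 general macrophage markers 9 were higher in fat and 0 in liver, with summed levels of 15378 to 16716 for liver and 48223 to 56462 for fat. Among them were Ms4a7 (-2.60 ± 0.22), the antigen presentation chaperone Cd74 (-2.20 ± 0.13), lysozyme Lyz2 (-2.17 ± 0.096) and Laptm5 (-1.98 ± 0.1). Of 7 mast cell and neutrophil markers 5 were higher in fat, with the mast cell proteases Cpa3 (at least 4.42-fold), Mcpt4 and Tpsb2 and the neutrophil protein S100a8 undetected in liver. Without background correction 2 were, Mcpt4 (adjusted p = 0.065) and Tpsb2 (adjusted p = 1) not among them. Their summed levels were 967 to 1003 for liver and 2470 to 2823 for fat. Of 6 T and NK cell markers 2 were higher in fat, Thy1 (-2.81 ± 0.16) and Nkg7 (at least 1.92-fold). Thy1 is also counted among the preadipocyte and fibroblast markers below. Without background correction 1 was higher in fat, with Nkg7 lost, and without liver array 2 there were 4. Of 2 B and plasma cell markers tested 0 passed.

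Of 14 endothelial markers 11 were higher in fat and 0 in liver, with summed levels of 14657 to 14985 for liver and 62866 to 70557 for fat. Cldn5, of tight junctions, read 9.45, 9.14 and 9.36 in liver and 13.87, 13.88 and 13.77 in fat. Vwf and Cdh5 differed by -2.99 ± 0.16 and -2.82 ± 0.089. Of 9 sinusoidal endothelial markers 4 were higher in liver, with Clec4g, a lectin of these cells, at 7.21 ± 0.091, Oit3 at least 23.2-fold higher, and Dnase1l3 and Stab2 at 4.85 ± 0.078 and 3.56 ± 0.16. Lyve1, shared with lymphatic vessels, was higher in fat (-3.16 ± 0.21). Of 9 stellate cell markers 5 were higher in liver, among them Lrat, which makes retinyl esters for storage (at least 8.62-fold), Colec11 (3.30 ± 0.11), Hgf (3.19 ± 0.19, with 1.09 at its other probe) and Reln (2.75 ± 0.15), and 2 were higher in fat, Dcn and Pdgfrb, which fibroblasts share (1 without background correction or under median scaling). Of 5 cholangiocyte markers Ambp was higher in liver and Krt19 in fat. Ambp is also a plasma protein gene of the hepatocyte, as given above, and Krt19 is also on the mesothelial list, so neither is particular to cholangiocytes. Krt19 was undetected in liver, with fat levels too near the lowest detected liver level for a bound. It lost its call without background correction, under cyclic loess and median scaling, with trend and robust moderation, without a detection filter, and without liver array 3 (adjusted p = 0.0507), fat array 1 (0.225) or fat array 3 (0.113).

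Of 12 preadipocyte and fibroblast markers 10 were higher in fat and 1 in liver (Dpp4, 2.38 ± 0.09). Gsn and Pi16 were at least 39.9-fold and 25.3-fold higher in fat and Dpt differed by -6.28 ± 0.28. Of 9 mesothelial markers 7 were higher in fat, with 3 without background correction and 5 to 7 with 1 array left out. The uroplakins Upk1b and Upk3b were at least 7.65-fold and 13.7-fold higher in fat, with -2.53 and -4.15 at other probes of Upk3b. The 2 markers higher in liver were Krt8 and Krt18, the keratins of hepatocytes (3.09 ± 0.18 and 4.36 ± 0.20). Acta2, smooth muscle actin, read 9.21, 8.32 and 9.19 in liver and 15.02, 14.64 and 15.09 in fat, the 1 of 6 smooth muscle and pericyte markers that passed.

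Markers of tissues that could be carried along in dissection were also read. Of 14 epididymis and testis markers 7 had a probe and 2 were tested. Prm1, a sperm chromatin protein, read 5.01, 5.19 and 5.15 in liver and 7.31, 6.54 and 6.70 in fat, undetected in liver and at least 1.31-fold higher in fat. Its call was lost without background correction, under median scaling and in the fit to all 18 arrays. None of the 2 exocrine pancreas and 2 skeletal muscle markers tested passed. Summed levels of the pancreas markers were 17114 to 21553 for liver and 30148 to 33687 for fat. Of the 5 pancreas markers with a probe 2 were undetected on all liver arrays and 3 on all fat arrays, so these sums come from few probes. Summed levels of the skeletal muscle markers were 240 to 278 for liver and 257 to 278 for fat. Of 4 erythrocyte markers 1 was higher in fat, the globin Hba-a1, with 14.75, 14.77 and 14.47 in liver and 16.01, 16.03 and 16.00 in fat (-1.35 ± 0.10). Of these 4 markers 2 passed under the replicate block and 3 without fat array 3, while Hba-a1 itself did not pass under cyclic loess, median scaling or the fit to all 18 arrays. Summed erythrocyte marker levels were 26869 to 32350 for liver and 68127 to 73009 for fat, and the part of blood in other differences was not tested. Of 2 nerve and Schwann cell markers Ngfr was at least 4.74-fold higher in liver, a call lost without background correction. Ngfr is also counted among the stellate cell markers above. The myelin gene Mbp was at least 9.62-fold higher in fat. Another probe of Mbp differed by only -1.38.

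For 1967 genes (19.2%) the 95% confidence interval of the difference lay within 1.5-fold either way. The 6 with the highest mean were Fth1 (ferritin heavy chain), Eef1a1 (a translation elongation factor), Cyp2e1, Trf, the mitochondrial gene ND4 and Atp5b (an ATP synthase subunit). Eef1a1 read 16.00, 16.04 and 16.03 in liver and 15.92, 15.98 and 15.96 in fat, with an interval of -0.11 to 0.25. All 6 lay within about 0.5 of the top of the scale in both tissues, where the arrays can show little difference, and 7 genes gave signals above 50000 on all 6 arrays. Under median scaling Fth1, ND4 and Atp5b turned from -0.064, -0.18 and -0.12 to 0.95, 0.85 and 0.94, while under cyclic loess they were 0.092, 0.00043 and 0.096.

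The tissue differences were then set beside those on the other diets, in 1 fit to all 18 arrays normalized together. On the HFD 1489 of 10764 genes (13.8%) were higher in liver and 2331 (21.7%) higher in fat, and on the LU diet 1491 (13.9%) and 2240 (20.8%). Of 1495 genes higher in liver on the ND in this fit, 1252 were also higher in liver on the HFD, which is 83.7% of the ND list and 84.1% of the HFD list. Of 2439 genes higher in fat on the ND, 1999 were also higher in fat on the HFD, 82.0% of the ND list and 85.8% of the HFD list. With luteolin 1275 and 1998 genes kept their call, 85.3% and 81.9% of the ND lists and 85.5% and 89.2% of the LU lists. On the HFD 1 gene of each direction was called in the opposite direction.

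The tissue difference itself differed between HFD and ND, by more than 1.5-fold in the treat test, for 376 of 10764 genes (3.49%). Among the 176 genes named by the rule for this comparison 20 passed. The named genes were chosen largely for their difference on the ND, whose arrays enter this test too, so a smaller difference on the HFD is favoured by the choice. Over all 376 genes the tissues were closer on the HFD for 182 and further apart for 194, and the shift was toward liver for 186 and toward fat for 190. Of 106 such genes higher in liver on the ND, 70 were closer and 36 further apart. For 105 higher in fat on the ND the counts were 85 and 20, and for 165 called in neither direction 27 and 138. This split by ND call uses the same ND arrays, so the choice favours its counts in the same way. Adig, undetected in ND liver, differed by -5.77 on the HFD and -8.88 on the ND, and Elovl3, undetected in fat on both diets, by 4.17 on the HFD and 6.41 on the ND. Fdps differed by -0.55 on the HFD and 2.17 on the ND, so that the liver excess of the ND was not seen. Cyp2e1 differed by 1.61 on the HFD, where fat arrays averaged 14.36, and by 0.014 on the ND, where they averaged 15.90.

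**Figure D5:**
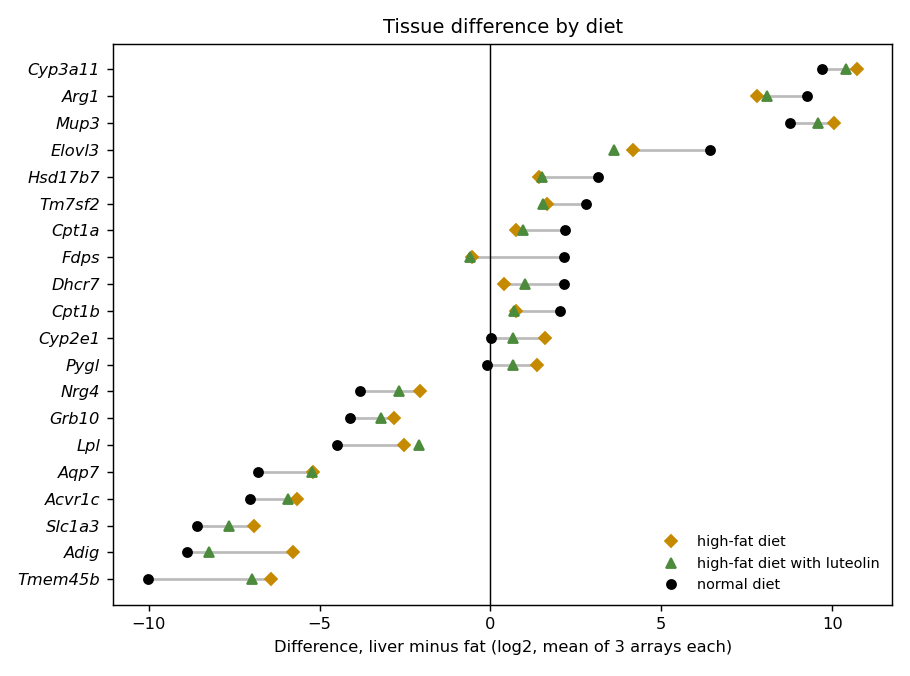
Difference between liver and fat (log2, liver minus fat, mean of 3 arrays each) under the high-fat diet (diamonds), the high-fat diet with luteolin (triangles) and the normal diet (circles), for the 20 named genes whose tissue difference differed between high-fat and normal diet. Tmem45b lies at -6.41 on the high-fat diet and -10.01 on the normal diet, where it is undetected in liver, and Cyp2e1 at 1.61 on the high-fat diet and 0.014 on the normal diet.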

How the data were processed

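Per the labels, biotinylated cRNA was made from 550 ng of total RNA. GenomeStudio 2009.2 and R 2.4.1 were used, per the submitters' processing notes. Per the file headers, the deposited tables give the intensity of every probe on every array, not normalized, beside its detection p-value. The authors' log2 matrix was normalized per tissue and not used here.

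The deposited intensities were processed with R 4.3.3 and limma 3.58.1. The 6 arrays were background corrected from the detection p-values, quantile normalized and turned to log2 with neqc (offset 16). Kept were the 19507 probes detected (p under 0.05) on every array of 1 tissue or both, of which 15419 had 1 gene name. GEO's platform annotation gives 1 gene for 22883 probes and several for 13, and 22836 matched GRCm38.p6 by Entrez identifier. The probe of highest mean was kept for each gene. Differences were tested with lmFit and treat (limma, 2-fold), and with eBayes against 0, with Benjamini-Hochberg adjustment over 10270 genes and a threshold of 0.05. Where none of a tissue's 3 arrays detected the kept probe, the fold is a bound for that probe. It is taken against the higher of the probe's own level and the array's lowest detected level. Other probes of the gene can differ by less, as given above for some genes. This also held for C9 (6.25), Serpinf2 (8.21 and 7.76), Arg1 (8.30) and Gnmt (8.91). It held too for Ces1c (8.72), Apoa4 (8.26), Nr1i3 (6.18 and 6.19) and Aqp7 (-4.46). On simulated data with 200 changed genes among 10270 the test recovered 62% at 3-fold, 92% at 4-fold and 100% at 8-fold and 16-fold, with 0 false calls. In the real comparison 36.7% of genes passed, a far larger part. The simulation therefore does not measure the recovery or false calls of the real comparison.

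Genes named are the 12 of largest difference in each direction among genes past the test whose arrays do not overlap, up to 4 per list past the test, both members of 25 pairs and the 6 of highest mean at like levels. Clone names were counted but not named. Members and lists were chosen with earlier results of these data known.

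Alternatives were no background correction, cyclic loess, median scaling, other detection filters, the mean of probes, trend and robust moderation, all 18 arrays, a replicate block, and leaving out each array. Deviations from the tissue means of same-numbered liver and fat arrays correlated at 0.124, 0.172 and 0.195 over 7618 genes, and the other combinations at -0.152 to -0.014. Deviations cancel within a tissue, so positive values for same-numbered arrays by themselves push the other combinations down. The contrast therefore cannot decide whether same-numbered arrays came from the same mouse, and the labels do not name the mice. What else such arrays could share was not tested. Pairing by number was an assumption used for the replicate block, and the main fit did not pair the arrays.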

Additional observations from a re-analysis of the deposited data

Results flagged for a closer look

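For 20 named genes the tissue difference on the HFD differed from that on the ND by limma's treat test of the difference between the differences (more than 1.5-fold, adjusted p under 0.05, all 18 arrays). Values are HFD minus ND of liver minus fat, log2 ± SE, with 3 arrays in each of the 4 groups. A positive value is a shift toward liver on the HFD. Of 81 named genes higher in liver on the ND 2 shifted toward liver, 8 toward fat and 71 did not pass. Of 81 higher in fat on the ND 8 shifted toward liver, 0 toward fat and 73 did not pass, among them Lep, Adipoq, Sfrp5 and Col3a1. For a group in which no array detected a gene, the shift is also given with that group at the lowest detected level of its arrays, as a description.

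Higher in fat on the ND and shifted toward liver were 8 genes. Nrg4 shifted by 1.75 ± 0.24, Grb10 by 1.27 ± 0.18 and Lpl by 1.95 ± 0.15 (adjusted p = 1.57e-05). Lpl lay at the top of the scale in fat, at 16.05 on the HFD and 16.02 on the ND, and averaged 13.51 in HFD liver and 11.53 in ND liver, so a change in fat could not be read. The other 5 were undetected in ND liver. Tmem45b shifted by 3.60 ± 0.14 (adjusted p = 2.16e-09), or 2.16 with ND liver at the lowest detected level, and averaged 8.47 in HFD liver. Adig shifted by 3.12 ± 0.23 (adjusted p = 2.26e-06), or 1.58, and Slc1a3 and Acvr1c, undetected in HFD liver too, by 1.67 ± 0.25 and 1.36 ± 0.17, or 1.16 and 1.09. Aqp7 shifted by 1.60 ± 0.16, but by 0.14 with ND liver at the lowest detected level. Slc1a3 averaged 12.89 in HFD fat and 14.27 in ND fat.

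Higher in liver on the ND and shifted toward fat were also 8 genes. Fdps shifted by -2.72 ± 0.44 (adjusted p = 0.00543), Dhcr7 by -1.76 ± 0.28, Hsd17b7 by -1.72 ± 0.16 and Tm7sf2 by -1.14 ± 0.15. Cpt1b shifted by -1.29 ± 0.17 and averaged 8.34 in HFD fat and 7.02 in ND fat. Elovl3, undetected in fat on both diets, shifted by -2.25 ± 0.24 (adjusted p = 2.70e-04), or -2.17 at the lowest detected level, and averaged 9.13 in HFD liver and 11.33 in ND liver. Arg1, undetected in ND fat, shifted by -1.47 ± 0.22, or -1.13, and Cpt1a, detected in ND liver alone of the 4 groups, by -1.45 ± 0.16, or -1.12.

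The other 4 shifted toward liver and were higher in liver or close on the ND. Cyp3a11, undetected in fat on both diets, shifted by 1.03 ± 0.11 and Mup3, undetected in HFD fat, by 1.29 ± 0.14, or 1.03 and 1.15 at the lowest detected level. Pygl shifted by 1.44 ± 0.13 and Cyp2e1 by 1.59 ± 0.13 (adjusted p = 8.75e-05). Pygl averaged 12.55 in HFD fat and 13.77 in ND fat, and Cyp2e1 averaged 14.36 in HFD fat and 15.90 in ND fat.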

How the results depend on the processing

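Over fits that left out 1 array, 1357 to 1394 genes were higher in liver, 2162 to 2298 higher in fat, 8280 to 8442 differed from 0 and 1718 to 1821 were at like levels, and 300 to 399 differed in tissue difference between HFD and ND. Without background correction 1482 genes were higher in fat and 3667 at like levels, and without a detection filter 4655 were at like levels, where genes at background in both tissues are counted. With a replicate block 1438 genes were higher in liver, 2344 higher in fat, 8538 differed from 0, 1974 were at like levels and 371 differed by diet. The block changed no call of a named gene and moved the 3 list counts given above. Median scaling gave 1607 genes higher in liver and 2037 higher in fat and moved the median over all genes to 0.0062, beside -0.14. Of 2637 values of named genes under the alternatives, 2568 kept direction and call, 53 lost the call, 3 gained one and 13 changed sign. The sign changed for Pygl under cyclic loess (0.30), median scaling (0.86) and the mean of probes (0.044), for Gys1 under median scaling (0.060), and under cyclic loess and median scaling for Fth1 (0.092 and 0.95), ND4 (0.00043 and 0.85) and Atp5b (0.096 and 0.94). Per3 changed sign without fat array 1 (0.45), 2 (0.32) or 3 (0.39), where its other probe was kept, and the difference of Per3 ranged from -1.61 to 0.45 over these fits. Trf passed under median scaling (1.29). Without background correction 16 named genes of low signal lost their call, each named with that loss above. Fdps also did not pass without a detection filter (adjusted p = 0.0542) or with trend and robust moderation (adjusted p = 0.0772). The arrays' background and the top of their scale bound the largest differences, and their number limits the precision.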
